A study of Mus musculus with 2 samples.

Results

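Transcripts of 10 genes of eicosanoid synthesis were measured in macrophages of the peritoneal cavity. The genes were taken by symbol: Pla2g4a, Ptgs1, Ptgs2, Ptges, Ptgis, Alox15, Alox5, Alox5ap, Lta4h and Ltc4s. All 10 were found among the 55450 features of the count matrices. The data were 2 single-cell libraries of F4/80+ cells, 1 from Ankrd22-/- (knockout) mice and 1 from Ankrd22+/+ (wild type) mice. The cells had been washed out of the peritoneal cavity and sorted on F4/80 by FACS. Per the series' design text the knockout was made with CRISPR/Cas9. No other treatment, time point, age, sex, strain or number of pooled animals is given in the labels. Each genotype had 1 library, so nothing could be tested or checked against a replicate. Each difference below is one between these libraries, and each interval is a 95% interval that covers counting error only.

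Eicosanoids are signalling lipids made from arachidonic acid, which the cytosolic phospholipase A2 encoded by Pla2g4a releases from membranes. In the prostanoid branch, the cyclooxygenases encoded by Ptgs1 and Ptgs2 make prostaglandin H2, from which Ptges makes prostaglandin E2 and Ptgis makes prostacyclin. In the leukotriene branch, Alox5 works with its helper protein FLAP, encoded by Alox5ap, to make leukotriene A4, which Lta4h turns into leukotriene B4 and Ltc4s into leukotriene C4. Alox15, a 12/15-lipoxygenase, makes oxygenated fatty acids and is known as abundant in resident peritoneal macrophages of the mouse. Ptgs1 is the textbook constitutive cyclooxygenase, grouped here with Alox5, Alox5ap, Lta4h, Ltc4s and Pla2g4a as 6 constitutive genes. Ptgs2 and Ptges form the group of 2 inducible genes, raised in macrophages by inflammatory stimuli. Alox15 and Ptgis were kept as a group of 2 others.

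The stretches directly before the start of the 2 cyclooxygenase genes are shown because Ptgs2 was the gene of the 10 furthest apart between the genotypes, and Ptgs1 is its constitutive counterpart. Both are from RefSeq, build GRCm38.p6, plus strand, 250 bases each, and run 5′ to 3′ up to the base before the annotated start. The Ptgs2 stretch is chr1:150099781-150100030 and the Ptgs1 stretch is chr2:36230176-36230425. Capitals mark matches on either strand to the GC box (GGGCGG) and to a C/EBP-like pattern (TTNNGNAA).

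Ptgs2: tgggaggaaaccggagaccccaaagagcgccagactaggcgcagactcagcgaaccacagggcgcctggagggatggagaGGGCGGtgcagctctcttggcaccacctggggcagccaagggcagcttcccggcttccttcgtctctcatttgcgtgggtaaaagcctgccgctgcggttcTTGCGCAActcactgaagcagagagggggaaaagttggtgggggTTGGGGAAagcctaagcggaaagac

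Ptgs1: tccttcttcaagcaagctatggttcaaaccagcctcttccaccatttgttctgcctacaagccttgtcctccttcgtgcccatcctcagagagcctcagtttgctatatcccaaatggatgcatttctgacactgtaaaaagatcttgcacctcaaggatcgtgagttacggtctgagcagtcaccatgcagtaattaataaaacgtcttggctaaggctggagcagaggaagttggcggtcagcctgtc

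The Ptgs2 stretch was 61.6% G or C with 13 CpG dinucleotides, and the Ptgs1 stretch was 48.0% G or C with 5, beside medians of 52.4% and 6 over 32817 promoters of the same length. In Ptgs2 the GC box began 170 bases before the start (position -170), and the C/EBP-like pattern began at -69, where it reads the same on both strands, and at -25. Of all promoters of this length, 32.7% held the GC box and 36.8% the C/EBP-like pattern. Neither stretch held a TATA box (TATAAA, in 12.4% of promoters), an E-box (CACGTG, 6.02%), a CRE half-site (CGTCA, 17.7%), an AP-1 site (TGANTCA, 6.75%), a GATA site (NGATAA, 22.5%) or the NF-kB consensus (3.90%), each searched on both strands. The Ptgs1 stretch held no match to any of the patterns searched. A match describes letters only, and a missing one says only that these letters are not in this window. RefSeq stretches were found for 7 of the 10 genes (Pla2g4a, Ptgs1, Ptgs2, Ptges, Alox5, Lta4h and Ltc4s).

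In the annotation of build GRCm38, Ptgs2 lies on chromosome 1 from 150100031 to 150108227 (plus strand) and Ptgs1 on chromosome 2 from 36230426 to 36252272 (plus strand). Ptgis lies on chromosome 2 from 167191805 to 167240604 and Alox15 on chromosome 11 from 70344152 to 70352031, both on the minus strand. Exons of Ptgs1, Ptgis, Alox5ap and Ltc4s overlap exons of a gene on the opposite strand (Gm43621, 1110018N20Rik, Gm19719 and Gm26542). How the counting used strand is not given in the sources used here, so the levels of these 4 genes are uncertain by any reads shared with those neighbours.

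The knockout library held 6706 barcodes and 110956482 unique molecular identifiers (UMIs, each a counted transcript molecule), and the wild type library 6315 barcodes and 96869041 UMIs. The series' design text names an expected capture of 8000 cells. After filters, doublet removal and removal of B-cell-like barcodes, 5990 knockout and 5907 wild type cells were left. The macrophage markers were present in both libraries: Adgre1, which encodes F4/80, had a UMI in 98.0% of these knockout cells and 98.2% of these wild type cells, and Csf1r in 97.1% and 94.3%. Ankrd22 had 0 UMIs in both libraries, where 3 counts would be 0.0270 counts per 1000000 (CPM) in the knockout library, against 0.0310 CPM in the wild type library, so these data cannot check the genotype labels. The libraries shared 15 barcode sequences. Cells were split by their UMIs of the class II genes Cd74, H2-Aa, H2-Ab1 and H2-Eb1, which encode antigen presentation proteins, as low (under 10 per 10000 UMIs), intermediate (10 to under 50) or high (50 or more). They were also split as cycling at 5 or more UMIs per 10000 over 16 cell cycle genes. Class II low non-cycling cells made up 5391 of the knockout and 4897 of the wild type cells, and the class II high non-cycling cells 114 and 143. Cells within 1.5-fold of a boundary numbered 287 and 501 for the lower class II boundary, 81 and 165 for the upper one, and 71 and 101 for the cycling boundary, knockout and wild type in each pair. Mitochondrial UMIs in class II low non-cycling cells had a median of 1.49% in the knockout library, against 0.693% in the wild type library. In the same cells the 7 macrophage markers summed to 28168 CPM in the knockout library, against 63986 CPM in wild type cells, a gap that is mostly Lyz2 (25563 CPM in knockout and 61418 CPM in wild type cells). The 7 small or recruited macrophage markers summed to 141 CPM in knockout and 872 CPM in wild type cells, mostly Retnla (118 and 822 CPM). The part of these differences in the results below was not tested. With Lyz2, Malat1 and mitochondrial genes left out of the totals, the Ptgs2 ratio given below was -3.19. That setting changes only the totals and moves the remaining genes nearly alike, so it cannot show that part.

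**Figure D1:**
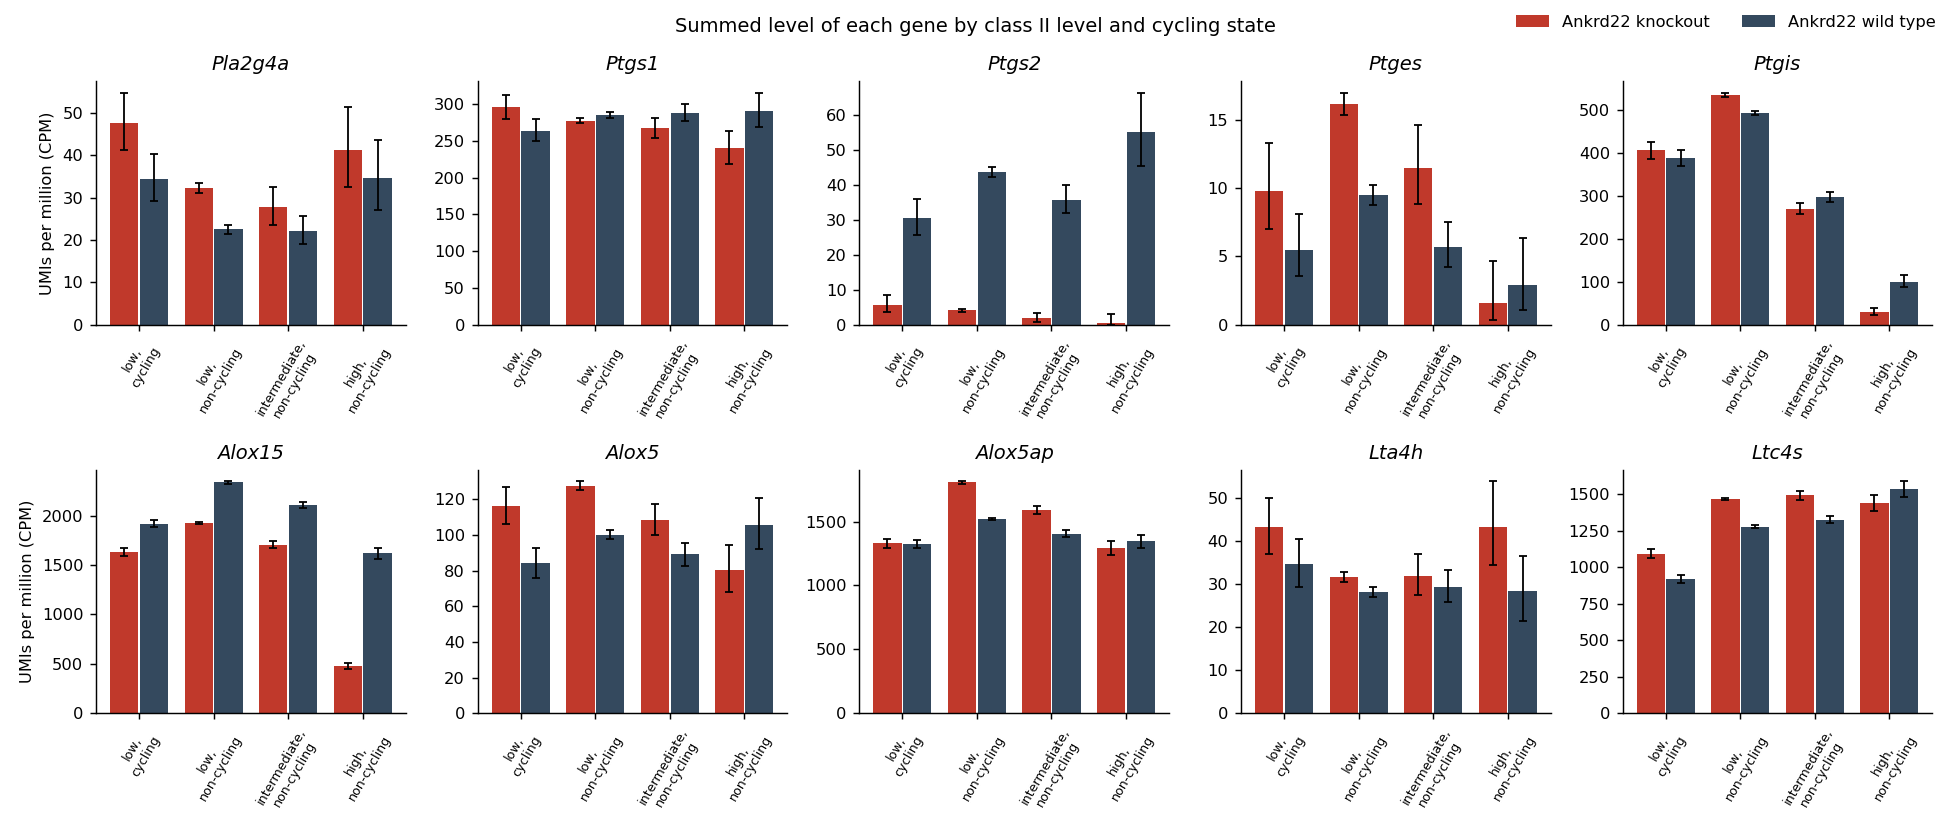
CPM of summed UMIs (vertical axis, linear from 0, a separate scale for each gene) of the 10 genes in cells split by class II level and cycling state (horizontal axis), with knockout bars left of wild type bars; lines are exact 95% Poisson intervals for counting error. Ptgs2 stood at 5.62 CPM or less in every knockout stratum shown and at 30.5 CPM or more in every wild type stratum shown, while Ptgis was lower in the class II high cells of both libraries.

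In class II low non-cycling cells, the bulk of both libraries, Ptgs2 was the 1 gene of the 10 more than 2-fold apart between genotypes. It was counted at 364 UMIs in knockout cells and 3147 UMIs in wild type cells, which is 0.0675 and 0.643 UMIs per cell, or 4.05 CPM (3.65 to 4.49) and 43.6 CPM (42.1 to 45.2). The log2 ratio of knockout over wild type, with 1 CPM added to each, was -3.14 (-3.27 to -3.01), an 8.83-fold lower value in the knockout library on that scale. A gene was counted as apart if it differed 2-fold and its higher value was 20 CPM or above. Of the 5045 genes at that level, 1.82% were 2-fold higher and 2.12% were 2-fold lower in the knockout library, and 0.119% had a ratio below that of Ptgs2. Of the 10 genes, 9 reached 20 CPM, of which 0 were 2-fold higher and 1 was 2-fold lower.

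The ratios of the other genes have to be read against the genes as a whole. The median log2 ratio over the 5045 genes was 0.21, and scaling by TMM in place of total UMIs moved the median ratio by -0.28. With TMM, 42 genes were 2-fold higher and 172 lower in the knockout library, against 92 and 107 with total UMIs, and Ptgs2 stood at -3.40.

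Of the other genes of the prostanoid branch, Ptgs1 was at 277 CPM (274 to 281) in knockout and 285 CPM (281 to 289) in wild type cells, 4.62 and 4.20 UMIs per cell, a log2 ratio of -0.04 (-0.07 to -0.01). Its ratio was above 0, at 0.14, when the knockout cluster described further on was left out. Pla2g4a stood at 32.3 CPM in knockout cells and 22.5 CPM in wild type cells, with a log2 ratio of 0.50 (0.42 to 0.59), which stayed above 0 at 0.22 under TMM. Ptges, the partner of Ptgs2 in inducible prostaglandin E2 synthesis, was at 16.2 CPM in knockout and 9.48 CPM in wild type cells, under the 20 CPM level in both, with a log2 ratio of 0.71 (0.59 to 0.83). The 2 inducible genes thus stood on opposite sides of 0, also under TMM, where Ptges was at 0.45. Ptgis was at 534 CPM in knockout and 491 CPM in wild type cells, a log2 ratio of 0.12 that was -0.17 under TMM.

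In the leukotriene branch, the lipoxygenase gene Alox5 was at 128 CPM in knockout and 100.1 CPM in wild type cells, 2.13 and 1.47 UMIs per cell, with a log2 ratio of 0.35 (0.31 to 0.39), and 0.06 under TMM. Its helper Alox5ap was at 1806 CPM in knockout and 1520 CPM in wild type cells, a log2 ratio of 0.25. The leukotriene C4 synthase gene Ltc4s was at 1466 CPM in knockout and 1279 CPM in wild type cells, a log2 ratio of 0.20. Lta4h was at 31.7 CPM in knockout and 28.2 CPM in wild type cells, a log2 ratio of 0.16. The last 3 ratios lay near the median gene and below 0 under TMM, at -0.04 for Alox5ap, -0.09 for Ltc4s and -0.11 for Lta4h, so their direction depends on the scaling. Alox15 went the other way and was at 1925 CPM (1916 to 1935) in knockout and 2334 CPM (2323 to 2345) in wild type cells, 32.1 and 34.4 UMIs per cell. Its log2 ratio was -0.28 (-0.29 to -0.27), or -0.57 under TMM, and 8.54% of the 5045 genes had a lower ratio.

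**Figure D2:**
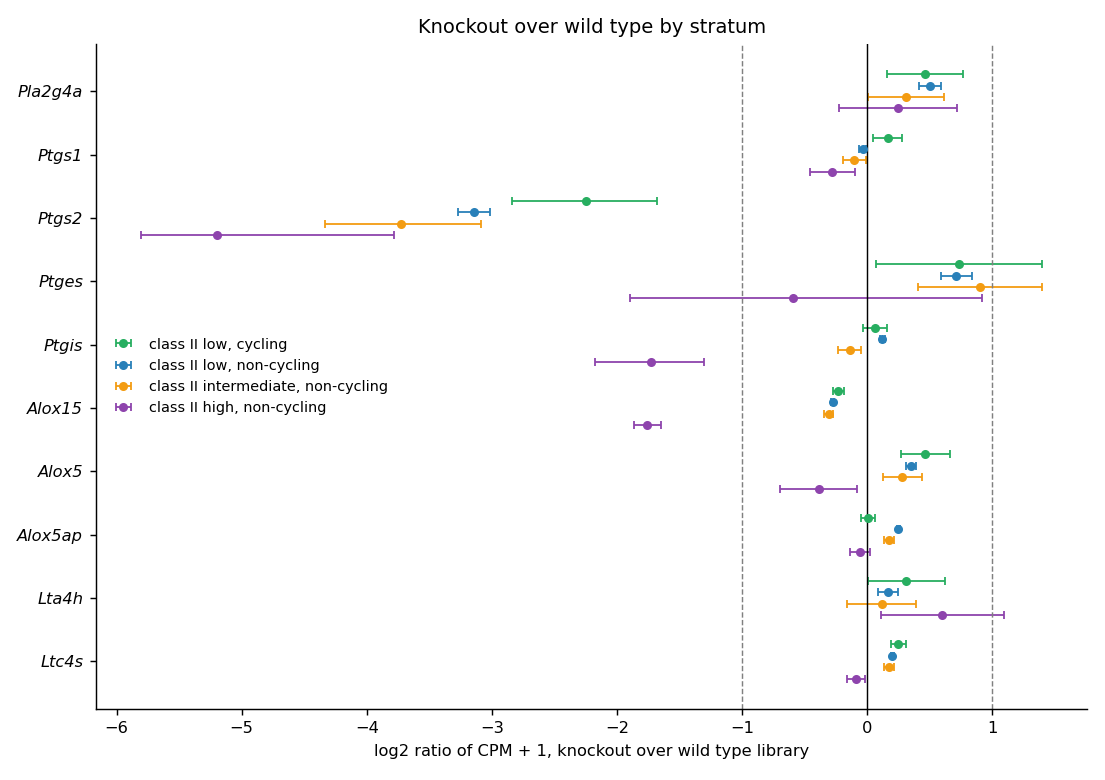
Log2 ratio of CPM + 1, knockout over wild type (horizontal axis; dashed lines at 2-fold), for each of the 10 genes (vertical axis) in 4 strata of cells; lines are 95% intervals for counting error. Ptgs2 lay left of the 2-fold line in all 4 strata, and Alox15 and Ptgis in the class II high cells only among the strata shown.

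The cyclooxygenase transcripts were spread over cells in different ways. Ptgs1 had a UMI in 88.0% of class II low non-cycling knockout cells and 91.1% of such wild type cells, and 11 or more UMIs in 8.31% and 4.96%. Ptgs2 had a UMI in 2.82% of the knockout cells (2.39 to 3.30) and 20.3% of the wild type cells (19.2 to 21.5). After every cell was thinned to 2000 UMIs, which left out 30 knockout and 50 wild type cells, the shares with Ptgs2 were 0.709% (0.502 to 0.972) and 6.42% (5.74 to 7.14). Median depth before thinning was 15831 UMIs in knockout and 14201 UMIs in wild type cells. Among B-cell-like barcodes, Ptgs2 was found in 0 of 46 from the knockout library, and in 1 of 39 from the wild type library, with 24 UMIs in that 1 barcode. These barcodes had median depths of 6675 and 5600 UMIs. After thinning, 17.1% of those in the knockout library and 2.63% in the wild type one had a Ptgs1 UMI. The class II low non-cycling cells had shares of 38.3% in knockout cells and 41.4% in wild type cells. The B-cell-like barcodes also held other macrophage transcripts, with Alox15, before thinning, in 52.2% of knockout and 41.0% of wild type barcodes. Their 7 macrophage markers summed to 20143 CPM in the knockout library and 18166 CPM in the wild type library. These few barcodes are therefore no measure of background.

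Ptgs2 was concentrated in few cells. In the wild type library, the 490 class II low non-cycling cells with the most Ptgs2, 10% of them, held 82.8% of its UMIs, and 1 cell held 80. The highest cell of the knockout library held 17 UMIs. The 540 knockout cells and the 490 wild type cells with the most Ptgs1 held 27.9% and 27.5% of its UMIs. A gene with few UMIs can have a high share for that reason alone. In that wild type stratum the share was 91.8% for Ptges (684 UMIs), 52.6% for Pla2g4a (1625 UMIs) and 47.4% for Lta4h (2035 UMIs). Cells with 6 or more Ptgs2 UMIs were counted in 2 classes: 8 knockout and 99 wild type cells had 6 to 10, and 4 knockout and 48 wild type cells had 11 or more. For each Ptgs2 UMI there were 68.5 Ptgs1 UMIs in the class II low non-cycling knockout cells, against 6.53 in such wild type cells. Detection of the 2 genes was set side by side in the same strata, at 2000 UMIs per cell. Ptgs2 was then found in 20 of 2053 knockout cells with a Ptgs1 UMI (0.974%) and 18 of 3308 without one (0.544%). It was found in 137 of 2009 wild type cells with a Ptgs1 UMI (6.82%) and 174 of 2838 without one (6.13%), with overlapping intervals in each library.

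**Figure D3:**
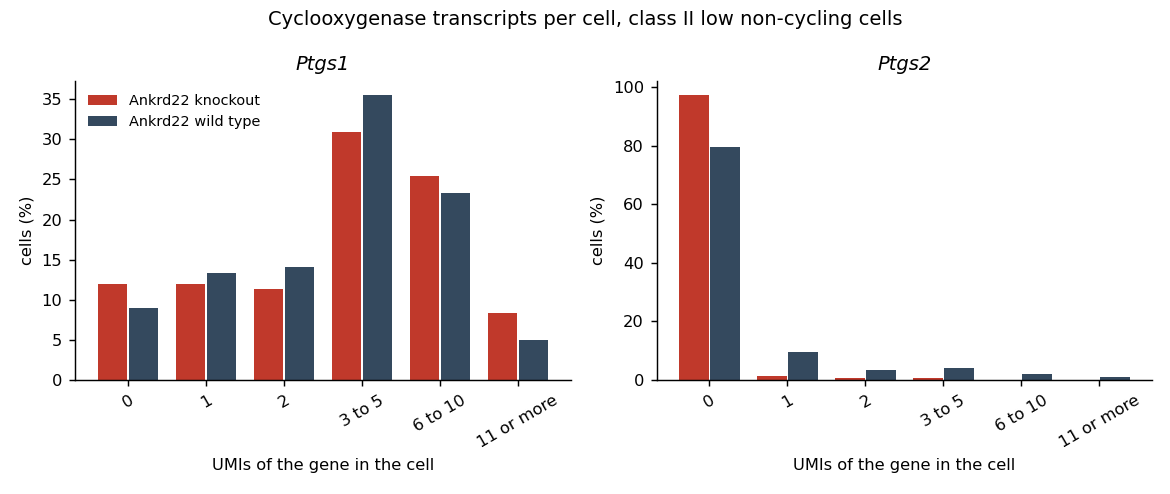
Share of class II low non-cycling cells (vertical axis, percent) by the number of UMIs of Ptgs1 (left panel) or Ptgs2 (right panel) in the cell (horizontal axis), with knockout bars left of wild type bars. Ptgs1 had 3 to 5 UMIs in 30.9% of knockout cells, against 35.5% of wild type cells, while Ptgs2 had 0 UMIs in 97.2% of knockout cells, against 79.7% of wild type cells.

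The lower Ptgs2 level of the knockout library was found in each of the other strata large enough to compare. In class II low cycling cells it was at 5.62 CPM in knockout and 30.5 CPM in wild type cells, a log2 ratio of -2.25 (-2.84 to -1.68). In class II intermediate non-cycling cells it was at 1.77 CPM in knockout and 35.7 CPM in wild type cells, a log2 ratio of -3.73 (-4.33 to -3.09). In class II high non-cycling cells 1 UMI was counted in 114 knockout cells and 113 UMIs in 143 wild type cells, which is 0.535 CPM (0.0136 to 2.98) and 55.2 CPM (45.5 to 66.4), with a log2 ratio of -5.19 (-5.81 to -3.78). In the low cycling and intermediate cells Ptgs2 was again the 1 gene of 9 at 20 CPM or more that was 2-fold lower, where 1.73% and 2.24% of all genes were, and 0 of 9 were 2-fold higher, where 2.83% and 2.1% were. Across clusters of cells, each nearly all from 1 library, Ptgs2 ranged over 0.632 to 6.39 CPM in 6 knockout clusters and 16.2 to 50.7 CPM in 6 wild type clusters. The lowest wild type value was in the cluster led by the heat shock genes Hspa1a and Hspb1.

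In class II high cells, 3 of the 9 genes at 20 CPM or more were 2-fold lower in the knockout library and 0 were higher, where 2.63% of 5631 genes were lower and 6.52% higher. Beside Ptgs2 these were Alox15 and Ptgis. Alox15 was at 478 CPM (447 to 510) in knockout and 1617 CPM (1562 to 1673) in wild type cells, 7.82 and 23.1 UMIs per cell, a log2 ratio of -1.76 (-1.87 to -1.65). Ptgis, the prostacyclin synthase gene, was at 29.4 CPM (22.2 to 38.3) in knockout and 100.2 CPM (86.9 to 115) in wild type cells, a log2 ratio of -1.73 (-2.17 to -1.31). The leukotriene genes lay closer together, with Ltc4s at 1440 CPM in knockout and 1535 CPM in wild type cells and Alox5ap at 1292 and 1344 CPM. Alox5 was at 80.3 CPM in knockout and 106 CPM in wild type cells, Ptgs1 at 240 CPM and 291 CPM, and Lta4h at 43.4 CPM and 28.3 CPM.

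The class II high cells of the 2 libraries differed in other markers as well. Their median class II content was 111 UMIs per 10000 in the knockout library, against 76.2 in the wild type library. Ccr2, the chemokine receptor of recruited monocytes, stood at 737 CPM in knockout and 179 CPM in wild type cells. The 7 large peritoneal macrophage markers together stood at 3550 CPM in knockout and 4859 CPM in wild type cells, against 14201 and 10082 CPM in class II low cells. Among them Gata6, the transcription factor of resident large macrophages, was at 44.4 and 72.3 CPM, Timd4 at 13.4 and 42.0 CPM and Vsig4 at 16.6 and 49.8 CPM, knockout and wild type in each pair. The 7 small or recruited macrophage markers summed to 13324 CPM in knockout and 13398 CPM in wild type class II high cells. Most of each sum was Retnla. The Ccr2 values thus do not stand for these markers as a set. Ccr2, Retnla and class II genes led a knockout cluster of 439 cells. Retnla, Folr2, Mrc1, Lyve1 and H2-Eb1 led a wild type cluster of 982 cells. Both clusters held more cells than the class II high strata. The eosinophil markers summed to 22.5 CPM in knockout and 1.95 CPM in wild type class II high cells, with Prg2, Epx, Siglecf and Il5ra at 0 in both. The part of these differences in the Alox15 and Ptgis values was not tested.

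Within each library, Ptgis followed class II content in a graded way. Over 8 bins of class II UMIs per 10000 in non-cycling knockout cells, with lower edges at 0, 1, 2, 5, 10, 20, 50 and 100, it stood at 553, 535, 488, 395, 317, 195, 30.6 and 28.2 CPM. In wild type cells the same bins held 517, 491, 450, 438, 327, 254, 109 and 84.6 CPM. Each step was downward in both libraries, and the intervals of the last 2 bins overlapped in both. Set as class II high against low non-cycling cells, Ptgis was at 29.4 CPM in high and 534 CPM in low cells of the knockout library, a log2 ratio of -4.14 (-4.53 to -3.77). In the wild type library it was at 100.2 CPM in high and 491 CPM in low cells, a log2 ratio of -2.28 (-2.49 to -2.09).

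Alox15 differed little over the low bins and was lower in the upper ones. Knockout cells held 1920, 1904, 1991, 1921, 1755, 1624, 711 and 238 CPM over the same 8 bins. Wild type cells held 2362, 2356, 2258, 2288, 2193, 1987, 1821 and 1242 CPM. Alox15 was thus lower in the knockout library in each bin, and most so in the 2 bins from 50 up, with 53 and 61 knockout cells and 92 and 51 wild type cells. Class II high over low, its log2 ratio was -2.01 (-2.11 to -1.91) in the knockout library, against -0.53 (-0.58 to -0.48) in the wild type library. It had a UMI in 71.9% (62.7 to 79.9) of class II high knockout cells and 91.6% (85.8 to 95.6) of such wild type cells, or 35.4% and 74.3% after thinning. The 12 class II high knockout cells with the most Alox15, 10% of them rounded up, held 56.3% of its UMIs, against 25.7% in the top 540 of class II low knockout cells.

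**Figure D4:**
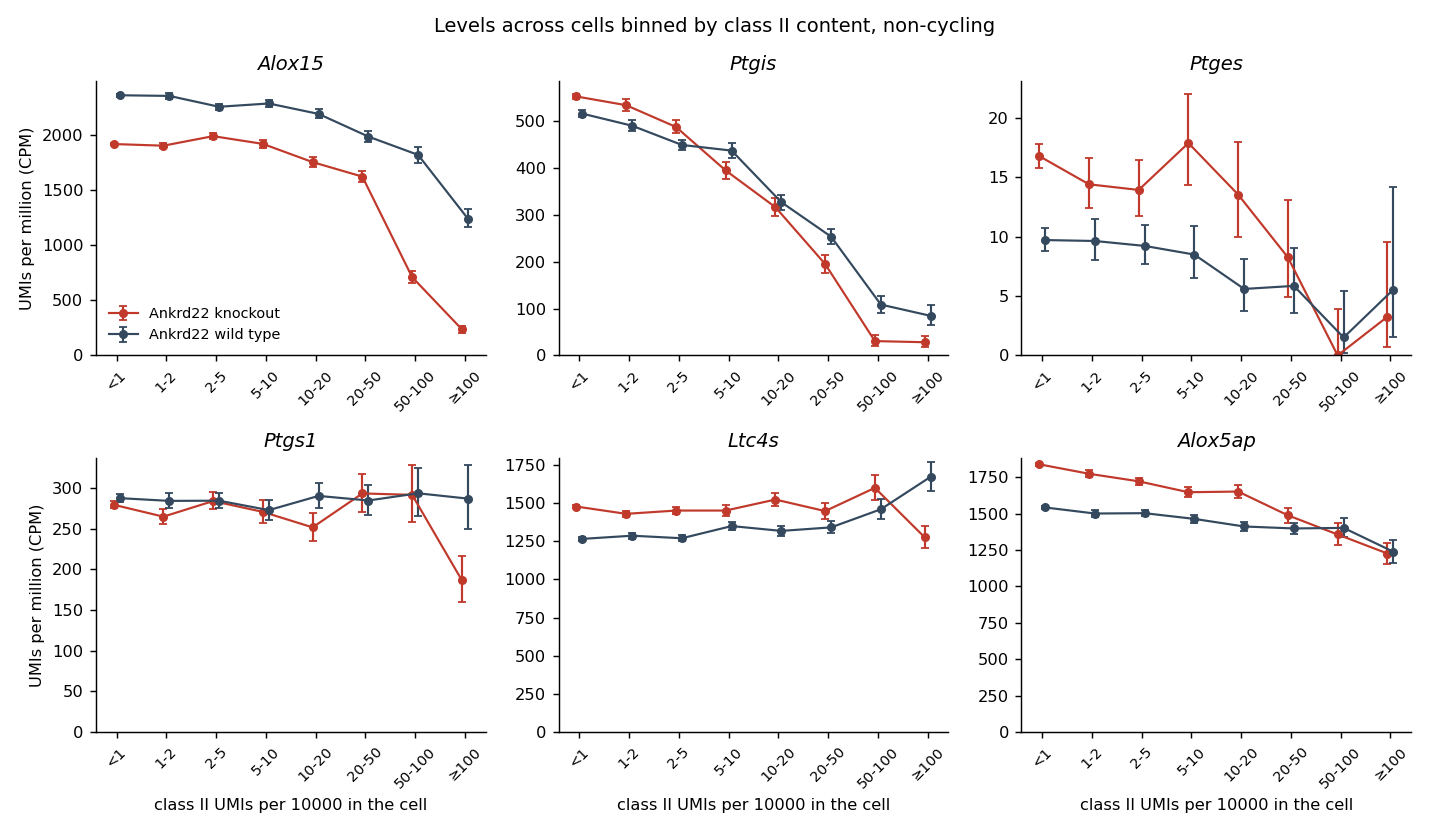
CPM (vertical axis, linear from 0) of 6 genes in non-cycling cells binned by class II UMIs per 10000 (horizontal axis, low to high), knockout in red and wild type in the dark colour; lines on points are exact 95% Poisson intervals. Ptgis is lower at each higher bin in both libraries, down to 28.2 CPM in knockout and 84.6 CPM in wild type cells in the last bin, while Ptgs1 lies between 252 and 293 CPM in knockout cells below the last bin.

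In the class II high over low comparison, 2 of 8 genes at 20 CPM or more were 2-fold lower in the knockout library (Alox15 and Ptgis) and 1 of 9 in the wild type library (Ptgis), with 0 higher in either. Of all genes, 3.07% were lower and 6.74% higher in the knockout library, and 1.52% lower and 1.96% higher in the wild type library. With TMM the split of all genes was 206 higher and 285 lower in the knockout library, against 382 and 174 with total UMIs, and 65 higher and 100 lower in the wild type library, against 98 and 76. TMM moved the median ratio by -0.27 in knockout cells, against -0.18 in wild type cells, and the same genes among the 10 were called. A ratio above 0 but clearly smaller than that shift has no direction that holds under both scalings. Ltc4s had log2 ratios of -0.03 in the knockout library, against 0.26 in the wild type library. Those of Ptgs1 were -0.21 and 0.03, those of Alox5ap -0.48 and -0.18, and those of Pla2g4a 0.34 and 0.60, knockout and wild type in each pair. Alox5 was at -0.66 (-0.90 to -0.43) in the knockout library, against 0.08 (-0.12 to 0.27) in the wild type library. Ptges was at 1.61 CPM in high and 16.2 CPM in low knockout cells, and 2.93 CPM in high and 9.48 CPM in low wild type cells, under 20 CPM throughout. The high cells held 3 and 6 Ptges UMIs, giving log2 ratios of -2.72 (-3.69 to -1.59) and -1.41 (-2.34 to -0.50). Intermediate over low, 0 of 8 knockout and 0 of 9 wild type genes were 2-fold apart, where 0.447% and 0.107% of all genes were lower and 0.506% and 0.342% higher. Ptgis came closest, at -0.98 in the knockout library, against -0.72 in the wild type library.

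None of the 10 genes was 2-fold apart between cycling and non-cycling class II low cells at 20 CPM or above, with 0 of 8 in the knockout library and 0 of 9 in the wild type library. Of all genes, 8.13% were higher and 0.448% lower in cycling cells of the knockout library, and 7.62% higher and 0.314% lower in those of the wild type library. Cycling cells were deeper, with a median of 27351.5 UMIs against 15831 in non-cycling knockout cells, and 20197 against 14201 in wild type cells. UMIs per cell of several genes were higher in cycling cells while their CPM was lower. Alox15 had 45.8 UMIs per cell in cycling and 32.1 in non-cycling knockout cells, and 1634 and 1925 CPM. In wild type cells it had 39.4 UMIs per cell in cycling and 34.4 in non-cycling cells, and 1919 and 2334 CPM.

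TMM moved the median cycling ratio by -0.15 in knockout cells, against -0.17 in wild type cells. Several genes lay on the same side of 0 in both libraries when cycling was set against non-cycling. The log2 ratio of Ltc4s was -0.42 (-0.47 to -0.38) in the knockout library, against -0.47 (-0.52 to -0.43) in the wild type library. That of Alox5ap was -0.44 and -0.20, that of Ptgis -0.40 and -0.34, and that of Alox15 -0.24 and -0.28. Pla2g4a and Lta4h were above 0. Pla2g4a was at 47.7 CPM in cycling and 32.3 CPM in non-cycling knockout cells, and 34.4 CPM in cycling and 22.5 CPM in non-cycling wild type cells, log2 ratios of 0.55 (0.34 to 0.75) and 0.59 (0.35 to 0.82). Lta4h was at 0.44 (0.21 to 0.65) in the knockout library, against 0.29 (0.05 to 0.52) in the wild type library. The cycling cells were 146 knockout and 222 wild type cells, and their large peritoneal macrophage markers summed to 9625 CPM in knockout and 6891 CPM in wild type cells, against 14201 and 10082 CPM in non-cycling cells. The part of that in the ratios was not tested. Among class II intermediate wild type cells, 68 of them cycling, 0 of 9 genes were 2-fold apart, where 6.83% of genes were higher and 0.553% lower, and Pla2g4a stood at 0.64 (0.18 to 1.08). Strata under 50 cells gave no ratio. The 4 class II high cycling knockout cells held 44 Ptgs1 UMIs and 0 Ptgs2 UMIs, and the 18 such wild type cells held 114 Ptgs1 UMIs and 7 Ptgs2 UMIs.

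Within the knockout library, 1483 cells formed a cluster led by Hbb-bs, a red cell globin gene, Crebrf and Abca1, in which Ptgs1 was low. Of these, 1387 were class II low non-cycling cells, set against 4004 other knockout cells of that stratum. The clusters were made from these same counts, so the values are a description. Ptgs1 was at 128 CPM in the cluster, 313 CPM in the other knockout cells and 285 CPM in wild type cells, or 1.60 and 5.67 UMIs per cell in the cluster and the other knockout cells. The log2 ratio of cluster over other knockout cells was -1.29 for Ptgs1, beyond 2-fold, where 2.01% of genes were 2-fold lower and 2.12% higher. It was -0.79 for Alox5, at 79.8 and 139 CPM, and -0.88 for Pla2g4a, at 18.8 and 35.5 CPM. Ptges stood the other way, at 26.0 CPM in the cluster and 13.8 CPM in the other knockout cells, a log2 ratio of 0.86. Alox5ap was at 1837 and 1798 CPM. Ptgs2 had 19 UMIs in the cluster and 345 in the other knockout cells, or 1.09 and 4.76 CPM. Without the cluster the knockout over wild type log2 ratio was still -2.95 for Ptgs2. The cluster's cells were shallower, with a median of 12015 UMIs against 17279 in the other knockout cells, and had 1.54% against 1.48% mitochondrial UMIs. Hbb-bs stood at 174 CPM in the cluster, 34.6 CPM in the other knockout cells and 24.0 CPM in wild type cells. It also led another knockout cluster, where Ptgs1 was at 322 CPM, and a wild type cluster, where Ptgs1 was at 280 CPM. The part of depth and of red cell RNA in these values was not tested.

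**Figure D5:**
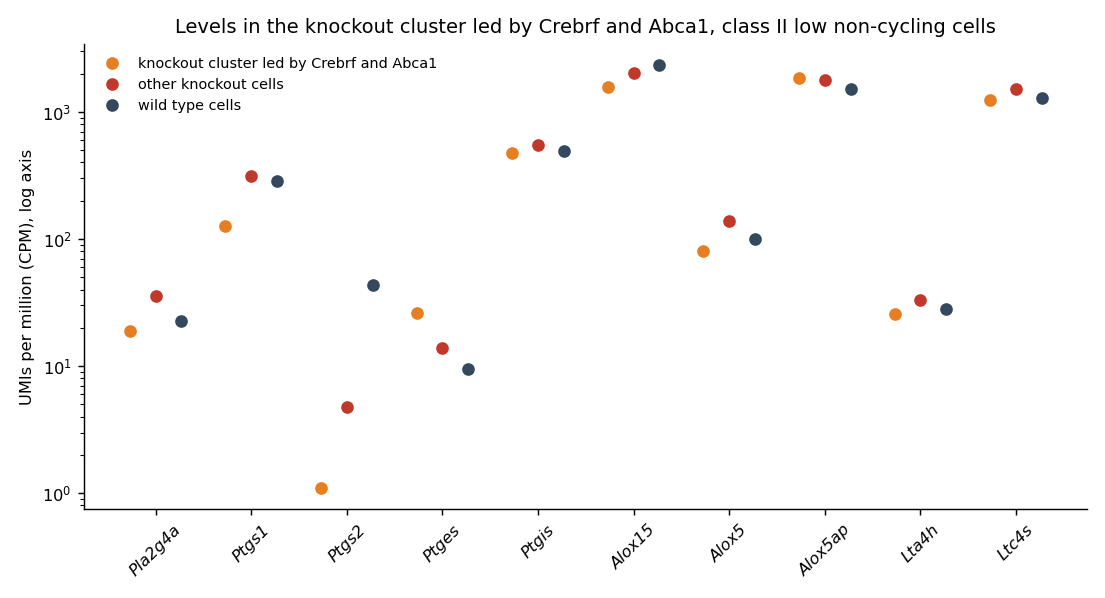
CPM (vertical axis, log scale) of each of the 10 genes (horizontal axis) in class II low non-cycling cells of the knockout cluster led by Crebrf and Abca1 (left point), the other knockout cells (middle) and wild type cells (right). Ptgs1 stood at 128 CPM in the cluster, 313 CPM in the other knockout cells and 285 CPM in wild type cells, and Ptges at 26.0, 13.8 and 9.48 CPM.

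By textbook group, the 6 constitutive genes had log2 ratios of knockout over wild type between -0.04 (Ptgs1) and 0.50 (Pla2g4a) in class II low non-cycling cells, all within 2-fold. The 2 inducible genes stood at -3.14 (Ptgs2) and 0.71 (Ptges), and the 2 others at -0.28 (Alox15) and 0.12 (Ptgis). The medians over the 9 genes at 20 CPM or more were 0.16 in class II low non-cycling, 0.16 in class II low cycling, 0.12 in class II intermediate and -0.28 in class II high cells, beside 0.21, 0.21, 0.22 and 0.26 over all genes at that level.

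Genes whose log2 CPM was most like a given gene over the 9 strata of at least 50 cells were listed among 6163 genes, as a description, since the strata share libraries. For Ptgs2 these were Osm, Plk2 and Clec4e, with Pearson correlations of 0.99, 0.98 and 0.98. For Ptgis they were Ltbp1, Serpinb1a and Lpcat2, each at 0.99. For Alox15 they were Rpl23, Rasgrp3 and Rps10-ps1, at 0.98, 0.97 and 0.97, and for Ptgs1 Pdia3, Rps6-ps4 and Gch1, at 0.93, 0.92 and 0.90.

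Further genes of eicosanoid metabolism and response were counted as a list of 82 found genes. In class II low non-cycling cells, 26 reached 20 CPM. With 1 CPM added, 0 of them were 2-fold apart between genotypes, and their median log2 ratio was 0.07, beside 0.21 over all genes. Lpcat3, which loads arachidonate into phospholipids, came closest, at 56.0 CPM in knockout and 27.7 CPM in wild type cells, a log2 ratio of 0.99 (0.92 to 1.06). Its CPM values were just past 2-fold apart before 1 CPM was added, so its place below that line rests on the addition. Acsl4, which activates arachidonate to its CoA form, was at 39.7 CPM in knockout and 23.6 CPM in wild type cells (0.72). Ptger4, a receptor of prostaglandin E2, was at 34.9 CPM in knockout and 53.7 CPM in wild type cells (-0.61). The next in size were the epoxide hydrolase gene Ephx1 (0.52), Dpep2, whose product cleaves leukotriene D4 (0.43), Cotl1, whose product binds 5-lipoxygenase (-0.40), the aldose reductase gene Akr1b3 (0.37) and the cysteinyl leukotriene receptor gene Cysltr1 (0.34). In class II high cells, 34 reached 20 CPM, of which 5 were 2-fold higher and 1 lower in the knockout library, where 6.52% of all genes were higher and 2.63% lower. The leukotriene B4 receptor gene Ltb4r1 was at 47.1 CPM in knockout and 2.93 CPM in wild type cells (3.61), and Cyp4f18, whose product degrades leukotriene B4, at 34.3 and 1.47 CPM, 1.47 CPM being 3 UMIs (3.84, 2.67 to 4.81). Pla2g7 was at 206 CPM in knockout and 34.2 CPM in wild type cells (2.55), the prostacyclin receptor gene Ptgir was counted at 71 and 30 UMIs (1.32), Acsl4 stood at 64.8 and 28.8 CPM (1.14), and the microsomal glutathione transferase gene Mgst1 at 87.3 and 249 CPM (-1.50). These are the same class II high cells whose Ccr2 and Gata6 levels differed between the libraries. Their summed small or recruited macrophage markers lay close together.

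Markers of other cell types were summed in the class II low non-cycling cells in which the genotypes were compared, beside the Hbb-bs levels given above. The 6 mesothelial markers summed to 0.0445 CPM in knockout and 0 CPM in wild type cells, with Msln and Wt1 at 0 in both. The 5 platelet markers summed to 0.134 and 0.194 CPM, the 8 eosinophil markers to 0.579 and 0.388 CPM with Prg2 at 0 in both, and the 7 B cell markers to 4.56 and 3.96 CPM. The 8 mast cell markers summed to 97.3 CPM in knockout and 46.9 CPM in wild type cells, nearly all of it Hdc, which macrophages also express, with Ms4a2 and Fcer1a at 0 in both. The 7 neutrophil markers summed to 82.6 and 88.0 CPM, mostly Csf3r and S100a8, with Ly6g and Ngp at 0 in both.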

How the data were processed

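The data were the authors' deposited UMI counts per gene and barcode, 1 matrix per genotype, made with the 10x Genomics 3′ v3 kit per the labels. Per the file headers, the counts came from Cell Ranger 6.1.2. The submitters' processing notes also name bcl2fastq, Seurat 4.1.0 and the build mm9; all 55450 feature identifiers are in GENCODE M21 (GRCm38), used here for positions. The 3′ counts of this kit depend on the annotated ends of genes, so levels of different genes were not ranked. Ptgs1 UMIs per Ptgs2 UMI are given only to set the libraries side by side.

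The members and lists were chosen with earlier results of these data known. The genes named are the 10 members, at most 8 of the wider list in a comparison by the largest absolute log2 ratio at 20 CPM or more, the 3 most alike genes for 4 members, and markers. Of 83 symbols in the wider list, 82 were found.

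Left out were barcodes where fewer than 500 genes were detected or where mitochondrial UMIs exceeded 10% (346 knockout, 56 wild type). Scrublet's automatic thresholds called 1 barcode in each library, 0.0157% and 0.0160%, too few for a working threshold, so the highest scores were removed at 0.8% per 1000 barcodes (324 and 313). Barcodes with 3 or more UMIs over a short list of B cell marker genes, not all reported here, were called B-cell-like and left out (46 and 39). UMIs were summed per stratum and divided by the stratum's total to give CPM, with exact Poisson intervals. Ratios are log2 with 1 CPM added and exact conditional binomial intervals. Shares have exact (Clopper-Pearson) intervals. The random seed was 0. Clusters came from the Leiden method at resolution 1 on 2000 variable genes, 30 components and 15 neighbours, without integration. The ratio code was tested on simulated data. Alternatives were TMM and median-of-ratios scaling, 0 and 5 CPM added, other filters, other class II and cycling boundaries, clusters in place of strata, no doublet removal, and thinning. The comparison without the knockout cluster, and the 2 scalings within libraries, were added after seeing the data.

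TMM factors came from edgeR 4.0.16 (R 4.3.3); edgeR ran no test. Cells were clustered with leidenalg 0.10.2 and scanpy 1.11.5, and sums and intervals computed with scipy 1.17.1 and numpy 2.4.6 under Python 3.11.15.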

Additional observations from a re-analysis of the deposited data

Results flagged for a closer look

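Several ratios stood on opposite sides of 0 in a pair of comparisons, with counting intervals that left out 0. None of these differences was tested, since each genotype had 1 library. Class II high over low, Ptgs2 was at -1.72 in the knockout library, resting on 1 UMI in the high cells, and 0.33 in the wild type library. Cycling over non-cycling, Ptgs1 was at 0.091 in the knockout library, against -0.11 in the wild type library. Knockout over wild type, Alox5 was at -0.39 in class II high and 0.35 in class II low cells, Ptgis at -1.73 in class II high and 0.12 in class II low cells, and Ltc4s at -0.091 in class II high and 0.20 in class II low cells. Knockout over wild type, Ptgs1 was at 0.16 in cycling and -0.039 in non-cycling class II low cells. Under TMM scaling the class II low ratios of Ptgis and Ltc4s were below 0, and the cycling ratio of Ptgs1 in the knockout library, 0.091, is smaller than the -0.15 by which TMM moved the median there, so these opposite sides depend on the scaling. For knockout over wild type, TMM was not run in class II high or in cycling cells.

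Barcodes left out by the cell filters also held these transcripts. Above 3 UMIs were counted for 10 of the 10 genes in the 346 knockout barcodes and for 6 of the 10 in the 56 wild type barcodes. In them Alox15 stood at 745 CPM in the knockout library, against 768 CPM in the wild type library, and Ptgs2 at 11.5 CPM from 5 UMIs and 39.7 CPM from 3 UMIs. The mast cell markers summed to 161 CPM in these knockout barcodes, with 2 of 8 present. They summed to 2305 CPM in these wild type barcodes, with 7 of 8 present. The part of other cell types in these values was not tested.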

How the results depend on the processing

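The counts of members 2-fold apart gave 10 results under 128 alternative values, of which 125 were within 1.5 times the count reported and 3 were not. Most of the 10 counts reported were 0, and the largest was 2. A count that stayed at 0 was taken as within, so the 125 are a weak measure of stability. With no filter on low values, 4 members were 2-fold lower in class II high than in low knockout cells, in place of 2, by adding Ptgs2 and Ptges. In the wild type library 2 were lower with no filter and 2 with a filter at 5 CPM, in place of 1, by adding Ptges. The construction of these alternatives, which lets low genes in, accounts for them. The counts over all genes for class II high over low at these filters are not given here. The added calls are therefore not read as a result about the members. Over 16 alternatives for knockout over wild type in class II low non-cycling cells, Ptgs2 ranged over -3.43 to -2.43, Alox15 over -0.57 to -0.22, Alox5 over 0.06 to 0.47, Ptges over 0.45 to 0.77 and Pla2g4a over 0.22 to 0.64, none changing sign. The alternatives that change only the CPM filter leave each gene's ratio as it was by construction. Alox5ap, Ptgis, Lta4h and Ltc4s went below 0 under TMM and median-of-ratios scaling only, and Ptgs1 above 0 only without the knockout cluster led by Crebrf and Abca1. Counts over all genes moved by more than 1.5 times mainly with the filter and scaling: knockout over wild type, 384 genes were higher and 172 lower with no filter, and 42 and 172 with TMM, against 92 and 107. No paired analysis was possible because each genotype had 1 library. The depth limits Ptgs2 in class II high knockout cells (1 UMI) and Ptges in class II high cells (3 and 6 UMIs).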
